A study of Mus musculus with 8 samples.

Results

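The genes described here build ribosomes in the nucleolus or, in a few cases, make polyamines and nucleotides, and all are commonly listed as targets of Myc transcription factors. A list of 38 such genes was named by symbol. For 35 of them the array held a probe set assigned to that gene and no other, out of 12393 genes measured in this way. Npm3, Dkc1 and Mrto4 had no such probe set and were not analysed here. For each gene, the probe set with the highest mean log2 level over the 8 arrays was used, and the 35 genes had 65 probe sets in all.

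Expression was measured on Affymetrix arrays in 4 mouse hematopoietic lines, named PICALM6A, PICALM6B, PICALM6D and PICALM84 and shortened in the text to 6A, 6B, 6D and 84. They were made from fetal liver of embryonic day 14 embryos with the fit1 and Picalm fit1-5R alleles on the B6(Cg)-TyrC-2J/J background. All cells carried MLL-ENL, a leukemia fusion gene delivered by an MSCV-IRES-eGFP retrovirus, and were grown in interleukin-3 at 5 ng/ml with stem cell factor added at 50 ng/ml. Every line was measured once after transduction with the empty MSCVneo vector (Picalm-knockout cells) and once with human PICALM in that vector (PICALM-rescued cells), which gave 4 arrays per group. How many embryos or clones stand behind a line is not given in the sources used here. The fit1 mutations leave a truncated, non-functional protein. Each group holds 1 array per line, and the limma fit paired by line removes differences in level between lines. Its p-values rest on the spread of the 4 within-line differences, with variance information shared across probe sets. No probe set was named Picalm, so the labels were not checked against it. Kit, the receptor for stem cell factor, was at log2 levels of 9.38 to 10.98 over the 8 arrays, and Hoxa9, a gene that MLL fusions keep active, at 12.69 to 13.32. The number of arrays limits the precision.

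Ribosomes are assembled in the nucleolus, where RNA polymerase I transcribes the ribosomal RNA precursor. Small nucleolar ribonucleoproteins then modify this precursor, box C/D particles by methylation and box H/ACA particles by pseudouridylation, and large sets of processing factors cut it and fold it into the small and the large subunit. Myc proteins, which bind E-box sequences together with Max, are known for raising the expression of many of these factors in growing cells, and proteins of the Mxd family compete with them for Max.

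The letters CACGTG are the E-box that Myc and Max bind best, and they are shown here because the list was drawn up as Myc targets. Promoter windows of 300 bases, from 250 before to 50 after the gene start, were taken from RefSeq (GRCm38.p6) and held 31 of the 38 listed genes. CACGTG, which reads the same on both strands, was in the windows of 5 of the 31 genes (16.1%), in those of 10.8% of the array genes with a window and of 8.09% of all genes in the table. The sites of these 5 genes are printed in the direction of the gene, with the E-box in capitals. Up to 40 bases stand on each side, and the stretches of Nme1, Nop2, Pes1 and Wdr43 end no more than 30 bases past the gene start. The E-box of Utp20 starts 37 bases past the gene start, and only the bases before it are shown.
Nme1, 1 gene start, chr11:93968245-93968330, minus strand: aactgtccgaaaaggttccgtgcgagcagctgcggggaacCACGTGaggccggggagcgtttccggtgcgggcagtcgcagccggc
Nme1, another gene start, chr11:93968009-93968094, minus strand: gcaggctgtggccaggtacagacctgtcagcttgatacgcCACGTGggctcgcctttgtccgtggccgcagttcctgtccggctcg
Nop2, chr6:125131783-125131868, plus strand: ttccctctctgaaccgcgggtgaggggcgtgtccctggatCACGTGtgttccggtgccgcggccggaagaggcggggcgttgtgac
Pes1, chr11:3963937-3964004, plus strand: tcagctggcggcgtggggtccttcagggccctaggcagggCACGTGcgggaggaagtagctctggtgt
Utp20, chr10:88826772-88826801, minus strand: ggcggcgcccagcggcactaactaCACGTG
Wdr43, chr17:71616192-71616244, plus strand: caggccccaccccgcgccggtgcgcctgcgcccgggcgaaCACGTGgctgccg

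The related letters CACGCG, searched on both strands (CGCGTG on the other), were in the windows of 8 of the 31 genes (25.8%), against 17.3% of the array genes with a window and 10.5% of all genes in the table. Pes1 held both motifs, at places that do not overlap. Odc1, Ddx21 and Nop16, which are described in the next paragraphs, were among the 8 and are shown with the motif in capitals. The motif starts 38 bases past the gene start in Ddx21 and 28 in Nop16.
Odc1, chr12:17544653-17544738, plus strand: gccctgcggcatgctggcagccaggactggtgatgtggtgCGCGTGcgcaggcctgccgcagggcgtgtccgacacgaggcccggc
Odc1, chr12:17544732-17544817, plus strand: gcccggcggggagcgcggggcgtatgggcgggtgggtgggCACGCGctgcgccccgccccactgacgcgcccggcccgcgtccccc
Ddx21, chr10:62602255-62602284, minus strand: tttctctgtcgccctctctcctagCACGCG
Nop16, chr13:54590041-54590070, minus strand: gcacgggtggacggagactattaaCACGCG
A match describes these letters in these windows only. The genes with an E-box did not share 1 pattern of expression: Utp20 and Wdr43 were lower in the rescued array of all 4 lines, as was Nop2, while Nme1 and Pes1 differed by -0.01 and -0.02 on the log2 scale.

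Most of the 35 genes had small differences below 0, and none passed in limma. Of the 35 genes, 34 had a mean difference (rescued minus knockout, log2) below 0, from -0.23 for Polr1b to 0.01 for Bop1, with a median of -0.08 against 0.01 over all 12393 genes. In all 4 lines, 18 of the 35 (51.4%) were lower and 0 were higher in the rescued array, where 12% of all genes were lower and 13.4% higher in all 4 lines. Among the 4392 genes at least as bright as the dimmest of the 35, these shares were 18.3% and 19%. A further 10 genes were lower in 3 lines, 6 in 2 lines and 1, Bop1, in 1 line.

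In limma, blocked by cell line and with adjustment over all 22626 probe sets, 0 of the 35 passed the 12% false discovery rate. Of all probe sets 0.0796% passed, 0.0751% lower and 0.00442% higher. At an unadjusted p under 0.05, 9 were lower and 0 higher in limma, where 6.24% of all genes were lower and 6.83% higher. SAM paired by line, at the same false discovery rate, called 1 of the 35, Polr1a, as lower, where it called 2.05% of all genes lower and 0.71% higher. The standard errors of the 35 differences ran from 0.04 to 0.06 (log2), and their 95% intervals reached from -0.38 at the lowest to 0.14 at the highest. In 0 of the 35 did the 2 groups of 4 arrays separate, where 1.44% of all genes were lower and 2.07% higher without overlap.

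**Figure D1:**
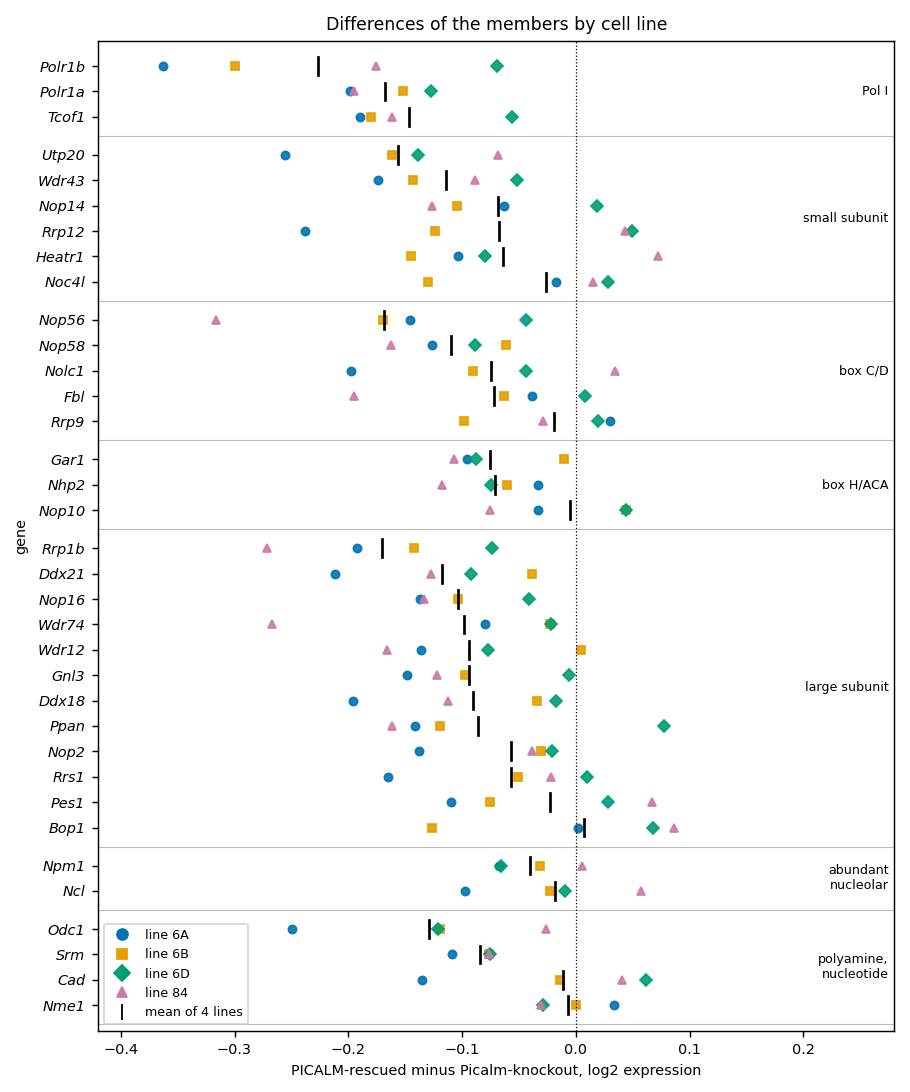
Rescued minus knockout log2 expression (x axis) of the 35 measured genes (y axis), grouped by role. Points stand for single lines, and the bar marks the mean over all 4. Most points lie left of 0, the 3 genes of RNA polymerase I lie left of 0 in all 4 lines, and line 6D lies nearest to 0 for many genes.

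All 3 genes of ribosomal RNA transcription were lower in every line, and none passed in limma. Polr1a, which encodes the largest subunit of RNA polymerase I, was at log2 levels of 9.29, 9.32, 9.31 and 9.89 in lines 6A, 6B, 6D and 84 without PICALM, and at 9.09, 9.17, 9.19 and 9.69 in the rescued cells. It was lower by a like amount in every line, and line 84 lay above the other lines in both groups. The mean difference was -0.17 (standard error 0.04, 1.12-fold lower, adjusted p = 0.318 from limma). A second probe set of Polr1a differed by -0.28, was lower in all 4 lines and was also called by SAM. The dimmest of its probe sets differed by -0.05.

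Polr1b, which encodes the second largest subunit, was at 9.18, 9.14, 9.18 and 9.56 in knockout cells and at 8.81, 8.84, 9.11 and 9.38 in rescued cells. Its difference of -0.23 (standard error 0.06, 1.17-fold lower, adjusted p = 0.328) was the largest of the 35, and it was widest in lines 6A and 6B. Tcof1 encodes treacle, a nucleolar protein needed for this transcription. It was at 9.80, 9.84, 9.84 and 10.05 in knockout cells and at 9.61, 9.66, 9.79 and 9.89 in rescued cells. Its difference was -0.15 (standard error 0.05, adjusted p = 0.342), while its other 2 probe sets differed by -0.07 and -0.01 and were higher in line 6D.

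Among 6 genes of small subunit processing, Utp20 and Wdr43 were lower in all 4 lines. Utp20, a large scaffold protein, was at 10.27, 10.39, 10.36 and 10.59 in knockout cells and at 10.02, 10.22, 10.23 and 10.53 in rescued cells. It was lower by 0.16 on average (difference -0.16, standard error 0.05, adjusted p = 0.342), most in line 6A and least in line 84. Wdr43, a protein of the small subunit processome, was at 11.12, 11.15, 11.18 and 11.33 in knockout cells and at 10.95, 11.01, 11.12 and 11.24 in rescued cells, a difference of -0.11 (adjusted p = 0.387). The other 4 genes were not lower in every line. Nop14, Rrp12, Heatr1 and Noc4l differed by -0.07, -0.07, -0.06 and -0.03, and 1 of the dimmer probe sets of Noc4l was lower in all 4 lines (-0.11). Rrp12, which takes part in the export of pre-ribosomal particles, differed by -0.24 in line 6A and by 0.04 in line 84.

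**Figure D2:**
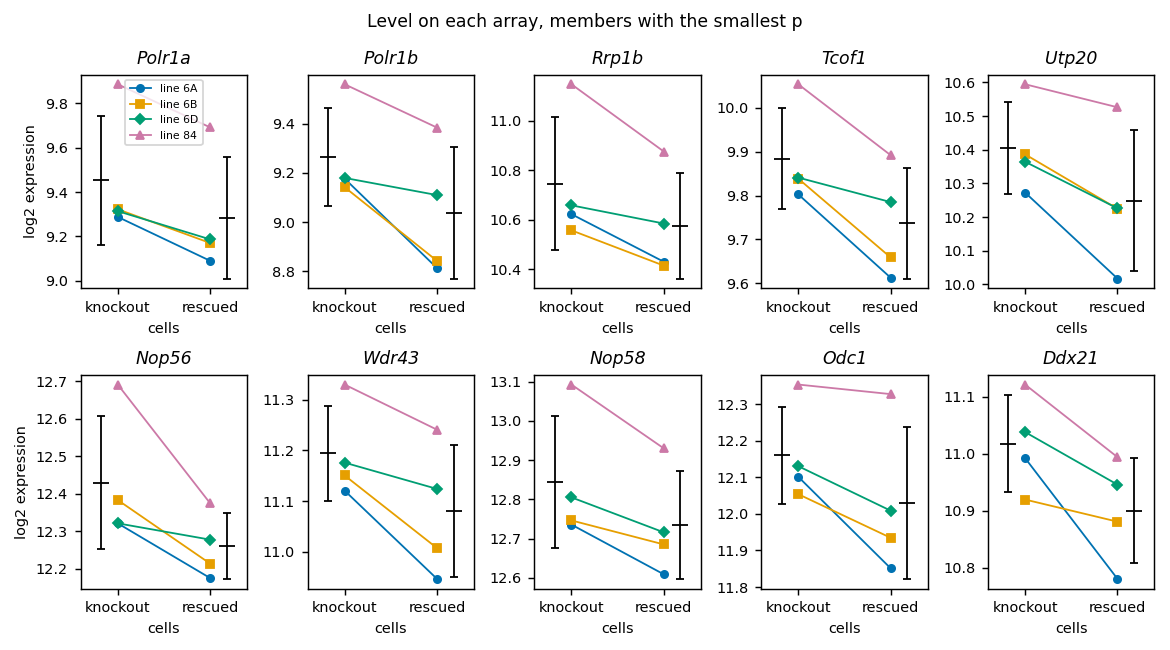
Log2 expression (y axis, a scale of its own in each panel) in knockout and rescued cells (x axis), 1 joined pair of points per cell line, for the 10 genes with the smallest p, with the mean and SD of the 4 arrays of a group beside the points. Each line goes down from knockout to rescued in each panel, and line 84 lies highest in all 10.

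Of the 5 genes of box C/D particles, Nop56 and Nop58, which form the paired core of the particle, were lower in all 4 lines. Nop56 was at 12.32, 12.38, 12.32 and 12.69 in knockout cells and at 12.18, 12.21, 12.28 and 12.37 in rescued cells, a difference of -0.17 (standard error 0.06, adjusted p = 0.353). The gap was widest in line 84, and a second probe set gave -0.14, also lower in all 4 lines. Nop58 was at 12.74, 12.75, 12.81 and 13.09 in knockout cells and at 12.61, 12.69, 12.72 and 12.93 in rescued cells, a difference of -0.11 (adjusted p = 0.388). Fbl encodes fibrillarin, the methyltransferase of the particle. It was at 12.56, 12.56, 12.57 and 12.85 in knockout cells and at 12.52, 12.50, 12.57 and 12.66 in rescued cells. Lines 6A, 6B and 6D hardly differed for Fbl and line 84 did, so that the mean was -0.07 (95% interval -0.20 to 0.05). Nolc1, a chaperone of these particles, differed by -0.07, and its other 2 probe sets by -0.11 and -0.16, both lower in all 4 lines. Rrp9, a protein of the U3 particle, differed by -0.02.

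Among the measured genes of box H/ACA particles, Gar1 and Nhp2 were lower in all 4 lines, by small amounts (differences of -0.08 and -0.07), and Nop10 differed by -0.01. A second, dimmer probe set of Nop10 gave -0.09 and was lower in all 4 lines. Nhp2 had a small spread within the groups, with knockout cells at 13.12 ± 0.04 and rescued cells at 13.05 ± 0.03 (SD, n = 4). Nop10 was at 13.20 and 13.12 in the 2 arrays of line 84 and at 12.48 to 12.64 in the other 6.

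Of 12 measured genes of large subunit processing, 7 were lower in all 4 lines, namely Rrp1b, Ddx21, Nop16, Wdr74, Gnl3, Ddx18 and Nop2. Rrp1b, a nucleolar protein related to yeast Rrp1, was at 10.62, 10.56, 10.66 and 11.15 in knockout cells and at 10.43, 10.41, 10.58 and 10.87 in rescued cells. Its difference was -0.17 (standard error 0.05, adjusted p = 0.334), and its other probe sets gave -0.09 and -0.07, each higher in line 6D. Ddx21, an RNA helicase that also acts in RNA polymerase I transcription, was at 10.99, 10.92, 11.04 and 11.12 in knockout cells and at 10.78, 10.88, 10.95 and 10.99 in rescued cells, a difference of -0.12 (adjusted p = 0.402). The difference was largest in line 6A, and a dimmer probe set of Ddx21 gave 0.01.

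Nop16 differed by -0.10, Wdr74 by -0.10, the GTP-binding protein Gnl3 (nucleostemin) by -0.09, the helicase Ddx18 by -0.09 and the RNA methyltransferase Nop2 by -0.06. Bop1, Pes1 and Wdr12 form 1 complex, PeBoW, and did not move alike. Wdr12 differed by -0.09 and was lower in 3 lines, and its dimmer probe set by -0.15 and in all 4. Pes1 differed by -0.02 and was lower in lines 6A and 6B alone, and Bop1 was the 1 gene with a mean above 0. Ppan and Rrs1 differed by -0.09 and -0.06 and were higher in line 6D.

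The abundant nucleolar proteins hardly differed in their brightest probe sets. Ncl, which encodes nucleolin, was at 13.58, 13.54, 13.60 and 13.58 in knockout cells and at 13.48, 13.52, 13.59 and 13.63 in rescued cells, a difference of -0.02 (95% interval -0.13 to 0.10). Its other 3 probe sets, all dimmer, gave -0.15, -0.14 and -0.04, and the first and second of these were lower in all 4 lines. Npm1, which encodes the histone chaperone nucleophosmin, was at 13.96, 13.92, 14.02 and 14.11 in knockout cells and at 13.90, 13.88, 13.95 and 14.11 in rescued cells, a difference of -0.04 (95% interval -0.14 to 0.06). A dimmer probe set of Npm1 gave -0.06 and was lower in all 4 lines. Of the 30 probe sets of the 35 genes that were not the brightest, 14 were lower in all 4 lines and 0 were higher, where 12.3% and 10.3% of such probe sets of all genes were. Probe sets of 1 gene are not independent of each other.

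Odc1 and Srm, the enzymes that make putrescine and spermidine, were lower in all 4 lines. Odc1 was at 12.10, 12.05, 12.13 and 12.35 in knockout cells and at 11.85, 11.93, 12.01 and 12.33 in rescued cells. The difference was -0.13 (standard error 0.05, adjusted p = 0.399), with -0.25 in line 6A and -0.03 in line 84, and the other probe sets gave -0.21 and 0.00. Srm differed by -0.08, by nearly the same amount in each line. Cad, which starts pyrimidine synthesis, and Nme1, a nucleoside diphosphate kinase, differed by -0.01 each.

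The size of the shift differed between the lines, and its order was not that of the brightest Mycn probe set. The median difference of the 35 genes was -0.14, -0.09, -0.04 and -0.09 in lines 6A, 6B, 6D and 84. The number that were lower was 32, 33, 24 and 26 in these lines, where 43.1%, 46%, 48.7% and 52.6% of all genes were lower. The brightest Mycn probe set differed by -0.50, -1.86, -1.63 and -0.47 in the same order of lines. Line 6D thus had the smallest shift of the 35 genes beside the second largest difference of this probe set. Line 6A had the largest shift beside one of its smallest differences. By the dimmest Mycn probe set, line 84 had the largest fall (-1.90), so the order of the Mycn differences depends on the probe set. The lowest of a gene's 4 line differences was in line 6A for 19 of the 35, in line 84 for 12, in line 6B for 4 and in line 6D for 0, where these shares of all genes were 20%, 36.9%, 19.7% and 23.4%. With 4 lines no correlation is given, and with 1 array per line and group the differences between lines were not tested.

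**Figure D3:**
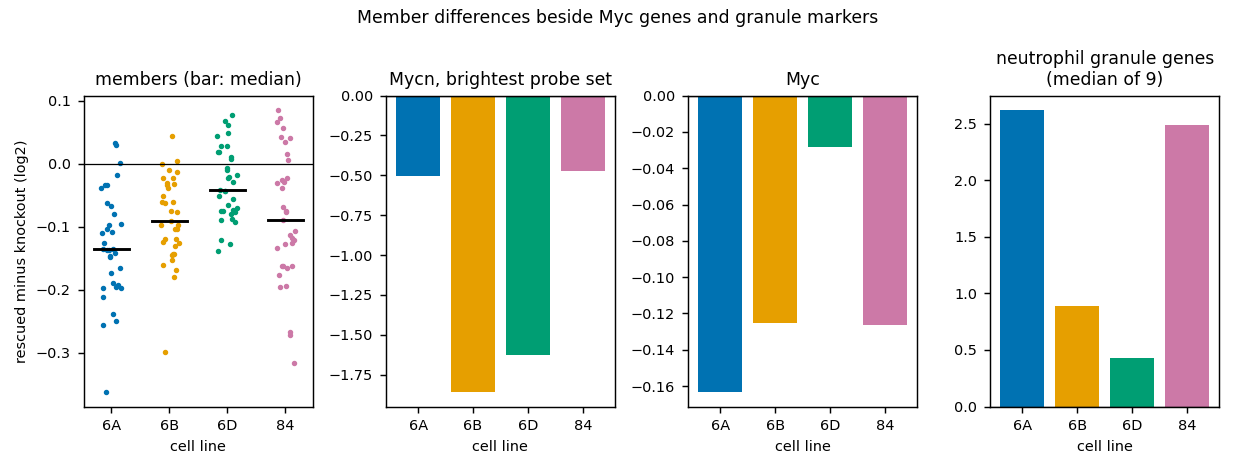
Difference in log2 expression, rescued minus knockout (y axis, a scale of its own in each panel), in each of the 4 cell lines (x axis), for the 35 genes with their median, for the brightest Mycn probe set, for Myc and for the median of 9 neutrophil granule genes. The Mycn bars are longest in lines 6B and 6D, while the median of the 35 genes lies lowest in line 6A and nearest to 0 in line 6D.

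The probe sets of Mycn differed in level and in the line that moved most. The brightest was at 14.10, 14.22, 14.17 and 14.20 in knockout cells and at 13.60, 12.36, 12.54 and 13.72 in rescued cells of lines 6A, 6B, 6D and 84. The groups did not overlap, the mean difference was -1.12 (standard error 0.27, adjusted p = 0.318 in limma), and SAM paired by line called it lower. On the knockout arrays, 99.59% to 99.72% of all probe sets lay at or below it. The largest value on any array was 14.87, and whether differences are compressed this near it was not tested. The next probe set by mean level ran from 5.68 to 6.16, with 29.5% to 35.6% of all probe sets at or below it, and differed by 0.03 on average. The dimmest by mean level was at 4.62 to 4.83 on the 6 arrays of lines 6A, 6B and 6D, and at 9.59 and 7.69 on the knockout and rescued array of line 84. On those 6 arrays, 12.6% to 15.8% of all probe sets lay at or below it, which leaves little room to show a fall. By this probe set line 84 had a difference of -1.90, and lines 6A, 6B and 6D differed by -0.09, 0.17 and -0.13.

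**Figure D4:**
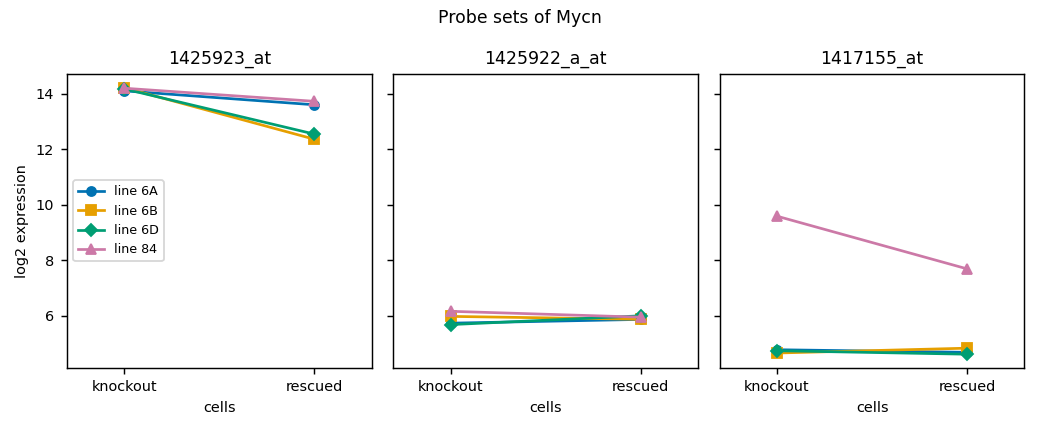
Log2 expression (y axis) of the 3 Mycn probe sets in knockout and rescued cells (x axis), 1 joined pair of points per cell line. The first goes down most in lines 6B and 6D, the second is flat, and the third lies apart in line 84 alone, with a difference of -1.90.

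Other genes of the Myc network were set beside these values. Myc was at 11.27, 11.31, 11.27 and 11.64 in knockout cells and at 11.11, 11.19, 11.24 and 11.52 in rescued cells. Its differences were -0.16, -0.13, -0.03 and -0.13 in lines 6A, 6B, 6D and 84. They were largest in line 6A and smallest in line 6D, as were the medians of the 35 genes, and this order was not tested. The mean difference of Myc was -0.11 (95% interval -0.22 to 0.00, adjusted p = 0.402). Mxd1, which competes with Myc for Max, was higher in all 4 lines without overlap of the groups (0.25, adjusted p = 0.318). Its mean log2 level of 6.64 lay below every array median. Mxd3 was higher in all 4 lines (0.19, adjusted p = 0.328), while its dimmer probe sets differed by 0.11 and 0.02 and were lower in line 6B. Mxi1, of the same family, differed by 0.66, 0.37, -0.02 and 1.22 in lines 6A, 6B, 6D and 84. Its dimmer probe set differed by 0.38, 0.00, 0.06 and 0.92. Mlx, another gene of the network, was higher in all 4 lines by both of its probe sets (0.27 and 0.22). Max differed by -0.09 and was lower in 3 lines. Mxd4 and Mnt differed by 0.09 and 0.02, and neither was higher in all 4 lines. Of the 12 measured genes of this network 0 passed in limma. At an unadjusted p under 0.05 in limma, 1 was lower and 4 were higher, where 6.24% of all genes were lower and 6.83% higher. SAM called Mycn alone, where it called 2.05% of all genes lower and 0.71% higher.

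Other factors of ribosome production were listed apart from the 35, and most of those lists had the same direction. Of 10 measured genes of RNA polymerase I transcription, 4 were lower and 1 higher in all 4 lines, with a median of -0.11. Polr1c, a subunit shared with RNA polymerase III, and Taf1b, a subunit of the initiation factor SL1, were the 2 lower genes with the smallest p (-0.17 and -0.15), and Polr1d was the higher one (0.08). Of 40 genes of large subunit processing, 17 were lower and 0 higher, with a median of -0.07. The helicase Ddx27 (-0.20) and the GTPase Lsg1 (-0.15) were the lower genes with the smallest p. Of 39 genes of small subunit processing, 10 were lower and 0 higher, with a median of -0.03, and Rcl1 (-0.24) and Pno1 (-0.11) had the smallest p among the lower ones. Of 17 genes of the exosome, RNase P and particle assembly, 7 were lower and 0 higher, with the smallest p for Rpp40 (-0.30) and Ruvbl1 (-0.14). The background is again 12% lower and 13.4% higher over all genes. Among the 4392 genes at least as bright as the dimmest of the 35, it is 18.3% and 19%. In limma, 0 genes of these lists passed. At an unadjusted p under 0.05 in limma, 4, 8, 2 and 1 genes of these lists, in the order given, were lower and 0 were higher. Over all genes, 6.24% were lower and 6.83% higher at that threshold. By that threshold, though not by the count lower in all 4 lines, small subunit processing (2 of 39) and the exosome list (1 of 17) were no more often lower than all genes. SAM paired by line called 2, 4, 1 and 1 lower, where it called 2.05% of all genes lower.

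The enzymes around Odc1, Srm, Cad and Nme1 gave 11 lower and 2 higher of 22 measured, with a median of -0.08. Dhodh and Adsl, of pyrimidine and purine synthesis, were lower (-0.24 and -0.17), and Sat1, which breaks polyamines down, was higher (0.21), as was the folate enzyme Mthfd2 (0.08). Genes of the cytoplasmic ribosomal proteins had no such direction. Of 43 measured out of 79 listed, 4 were lower and 4 higher, with a median of -0.01. Rpl12 (-0.21) and Rps4x (-0.07) were lower, and Rps25 (0.10) and Rpl27 (0.03) higher. The Rpl12 probe set was at a mean log2 level of 8.48, where the list mean was 13.25 to 13.36 on the knockout arrays. The largest value on any array was 14.87, and whether small differences of ribosomal protein genes are flattened at such levels was not tested. Genes of DNA replication and mitosis were divided, with 5 lower and 5 higher of 25 and a median of 0.00. Tyms and Mcm2 were lower (-0.12 and -0.11), and Mki67 and Plk1 higher (0.28 and 0.11). The Tyms probe set was dim, at a mean log2 level of 6.46, below every array median.

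**Figure D5:**
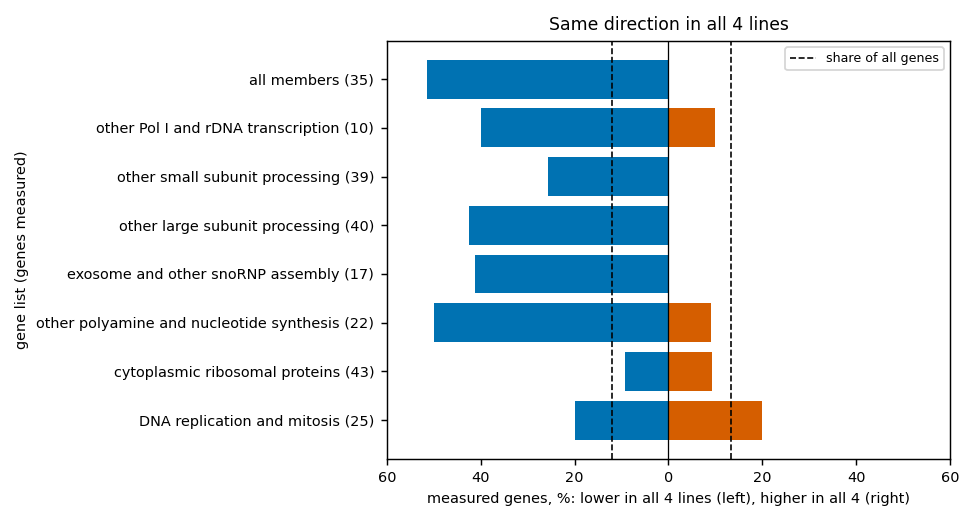
Share of the measured genes of each list (y axis, number measured in brackets) that were lower in all 4 lines (left) or higher in all 4 (right), in percent (x axis), with dashed lines at the shares of all genes, 12% and 13.4%. The 35 genes and the other lists of ribosome production reach past the dashed line on the left and not on the right, and the ribosomal proteins stay within both. Among genes at least as bright as the dimmest of the 35, the shares are 18.3% and 19% (not drawn).

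Some markers of more mature cells also differed between the groups, though 0 of the marker genes passed in limma. Of 9 measured neutrophil granule genes out of 10 listed, 7 were higher throughout the 4 lines and 0 lower. At an unadjusted p under 0.05, 6 were higher in limma, and SAM called 3 higher. Over all genes these shares were 6.83% and 0.71%, and 13.4% were higher and 12% lower in all 4 lines. The mean log2 level of the 9 granule genes was 8.16 to 9.41 on the knockout arrays and 9.88 to 11.34 on the rescued arrays. Their median difference was 2.62, 0.89, 0.43 and 2.48 in lines 6A, 6B, 6D and 84. Of the 7 stem and progenitor markers, 2 were lower and 0 higher throughout, and their median difference was -0.44, -0.34, -0.05 and -0.40. This list includes Mycn, which was 1 of the 2, and Gata2, which is also on the mast cell list. The neutrophil granule list and the stem and progenitor list differed least in line 6D, as did the 35 genes. Azurophil granule genes also did, with medians of 0.13, 0.08, 0.02 and 0.35 in lines 6A, 6B, 6D and 84. Monocyte genes differed least in line 6A, with medians of 0.06, 0.08, 0.27 and 0.47. Erythroid genes differed least in line 6A too, and lymphoid genes in line 6B. The part of these markers in the result was not tested. Of 7 genes of mast cells and basophils, 4 were higher and 0 lower, with medians of 0.49, 0.13, 0.12 and 1.67. Azurophil granule genes gave 2 higher and 0 lower of 4, monocyte genes 3 higher and 1 lower of 6, erythroid genes 0 in either direction of 4, and lymphoid genes 1 higher and 0 lower of 5. In lists this short, 1 gene is near the share of all genes (13.4% higher, 12% lower). In bulk RNA, fewer cells of a type and less RNA per cell cannot be told apart.

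Line 84 differed from the other lines in level. The mean log2 level of the 35 genes was 11.15, 11.15, 11.20 and 11.39 for lines 6A, 6B, 6D and 84 without PICALM, and 11.02, 11.06, 11.17 and 11.31 in the rescued cells. The rescued array of line 84 thus lay above the knockout arrays of the other 3 lines. Without line 84, 22 of the 35 genes were lower in the remaining 3 lines and 0 higher, where 18% and 21.7% of all genes were, and the median difference was -0.07.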

How the data were processed

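The authors normalized the arrays by RMA, which corrects background, equalizes the distributions of the arrays and summarises probes per probe set, and deposited log2 values. Equalizing the arrays removes a shift shared by all genes. The methods name the full mouse array, and the labels its A version. Of 22690 probe sets, 64 controls were left out, and 20380 of the 22626 tested carried 1 gene symbol (691 several, 1555 none). Array medians ran from 7.32 to 7.35. Probe sets ending in _s_at or _x_at can also detect related transcripts.

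The groups were compared in limma 3.58.1 (R 4.3.3), two-sided, with the cell line as a block, since both arrays of a line come from that line. The methods name no pairing. Once group means were subtracted, the pair of arrays of a line had correlations of 0.623 to 0.811, and for 8 of 8 arrays the best match was its partner. Benjamini-Hochberg adjustment covered all probe sets, at a false discovery rate of 12%, the threshold of the methods rounded to whole percent. SAM followed its published statistic, with 16 sign changes. The scripts were tested on simulated data.

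The members and lists were chosen with earlier results of these data known. Values on every array are given for the 10 members with the smallest p and for Ncl, Npm1, Fbl, Odc1 and Mycn. From each other list of genes, the 2 with the smallest p in each direction, among those alike in all 4 lines, are named. Nop10, Rrp12, Nhp2, Mxi1, Mlx, Max, Kit, Hoxa9 and the other probe sets were added after their values were seen.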

Additional observations from a re-analysis of the deposited data

Results flagged for a closer look

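In 11 of 80 groups of 4 arrays, over the 35 genes and Mycn, Myc, Mxi1, Mxd1 and Max, 1 array lay far from the other 3, and chance gives this in about 1 group in 20. All 11 were arrays of line 84, and each lay above the other 3. The gap to the nearest array, as a share of the range of the group, was 0.942 for Polr1a, 0.91 for Polr1b, 0.848 for Tcof1, 0.832 for Nop56, 0.843 for Gnl3, 0.935 for Ppan, 0.983 for Fbl, 0.867 for Nop10 and 0.87 for Myc on the knockout array. On the rescued array it was 0.839 for Polr1a and 0.903 for Nme1. Fbl, for example, was at 12.85 against 12.56 to 12.57 on the other knockout arrays, and Polr1a at 9.89 against 9.29 to 9.32.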

How the results depend on the processing

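The number of the 35 genes called in limma was 0 with the replicate block and without it, with array weights, at a threshold of 0.05, after quantile normalization or median centring, without the dimmest 40% of probe sets, with probe sets averaged per gene, and without each line. SAM paired by line called 1 (Polr1a), and the methods' t-test called 1 at an unadjusted 0.05 (Nhp2) and 0 after adjustment. Calls over all probe sets, 18 with the block, varied more: 0 without the replicate block, 105 with array weights, 4 at a threshold of 0.05, 3 with probe sets averaged per gene, 612 in SAM, 0 in the adjusted t-test and 1179 in the unadjusted one, and 0 to 49 without 1 line (49 without line 84, and 0 without each other line). The cause was not tested. The genes lower in all lines numbered 16 to 18 under the scaling, filter and probe set alternatives (16 after centring, with a background of 10.4% lower and 16.6% higher), and 19 to 22 of 35 when 1 line was left out, where the rule asks for 3 lines in place of 4 and 15.9% to 18% of all genes were lower. Those higher numbered 0 to 1 (Bop1 without line 6B). The median difference stayed below 0 throughout, from -0.10 without line 6D to -0.07. Mycn stayed lower in each alternative and was called by SAM (-1.12) and by the methods' t-test before adjustment. It was -0.52 as the mean of its probe sets, which includes the dim ones.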
